A study of Mus musculus with 6 samples.

Results

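The collagen genes were taken as all autosomal protein-coding genes of the mouse build mm10 whose symbol is Col, a number, a and a number. The RefSeq table of that assembly held 42 of them among 20665 autosomal protein-coding genes. Both X-linked members, Col4a5 and Col4a6, were left out by the same rule. MBD-seq had been done on whole-lung DNA of 6 mice aged 12 to 16 months: methylated fragments were captured with a methyl-binding-domain kit, and a peak marks a place where they were enriched. Of these mice 3 were wild type and 3 carried the transgene given in the labels as SPC-DNMTdelta3B/DG (spelled SPC-DNMTdeltaB/DG for replicate 2), in which the surfactant protein C promoter of alveolar type 2 cells drives a deletion variant of the methyltransferase DNMT3B. The labels name several founder lines and do not say which line each animal came from. The lung label was not checked against cell type markers here, because peaks of DNA methylation give no expression level.

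Collagens are the triple-helical proteins of the extracellular matrix, each made of 3 chains that come from 1, 2 or 3 genes. Fibrillar collagens of types I, III and V give lung interstitium its tensile strength and are made chiefly by fibroblasts, type IV forms the basement membrane under alveolar epithelium and endothelium, type VI forms beaded filaments around cells, and types II, IX, X and XI belong mainly to cartilage. Methylation of CpG-rich gene starts commonly goes with silence, whereas methylation inside transcribed genes is common and is no sign of silence. In DNA of a whole organ, fewer cells with a methylated site and less methylation per cell cannot be told apart.

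RefSeq gives the sequence at 36 starts of 33 of the 42 genes (assembly GRCm38.p6, 250 bases before to 50 after the start). Col5a2, Col4a3, Col9a3, Col26a1, Col12a1, Col1a1, Col14a1, Col22a1 and Col2a1 have no entry in that table. The bases before the start are shown for the 3 lung fibrillar collagens with an entry, and for 3 of the 4 starts with a peak nearby, because the statements on gene starts rest on them. Each runs 5′ to 3′ on the strand of its gene, with every CpG, the pair of letters that is methylated in mammalian DNA and reads CG on both strands, in capitals. Bases that lie inside the annotated gene span were left out for Col5a1. The start of Col18a1 shown here is the inner of its 2 starts and lies inside the gene span, 52825 bp from its outer end. The fourth start with a peak nearby, that of Col4a4, lies over the head-to-head neighbour Col4a3 and is not shown.
Col1a2: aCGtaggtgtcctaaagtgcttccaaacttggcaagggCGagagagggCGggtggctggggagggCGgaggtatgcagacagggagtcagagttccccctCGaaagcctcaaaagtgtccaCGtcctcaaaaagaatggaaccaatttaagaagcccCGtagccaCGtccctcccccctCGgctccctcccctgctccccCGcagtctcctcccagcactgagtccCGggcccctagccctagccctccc
Col3a1: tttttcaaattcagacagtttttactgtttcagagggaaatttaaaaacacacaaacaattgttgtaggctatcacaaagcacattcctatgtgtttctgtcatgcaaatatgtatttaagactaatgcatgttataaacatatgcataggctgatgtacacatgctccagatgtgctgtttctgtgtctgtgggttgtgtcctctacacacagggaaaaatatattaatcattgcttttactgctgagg
Col5a1: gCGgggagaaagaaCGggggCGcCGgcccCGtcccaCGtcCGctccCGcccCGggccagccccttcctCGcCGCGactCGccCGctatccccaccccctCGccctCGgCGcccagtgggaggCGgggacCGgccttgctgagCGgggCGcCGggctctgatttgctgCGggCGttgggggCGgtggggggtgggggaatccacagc
Col18a1: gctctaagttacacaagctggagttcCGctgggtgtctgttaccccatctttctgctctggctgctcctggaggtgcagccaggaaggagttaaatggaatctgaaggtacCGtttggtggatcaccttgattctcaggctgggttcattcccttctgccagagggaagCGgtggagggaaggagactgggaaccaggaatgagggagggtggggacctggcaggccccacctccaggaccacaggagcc
Col17a1: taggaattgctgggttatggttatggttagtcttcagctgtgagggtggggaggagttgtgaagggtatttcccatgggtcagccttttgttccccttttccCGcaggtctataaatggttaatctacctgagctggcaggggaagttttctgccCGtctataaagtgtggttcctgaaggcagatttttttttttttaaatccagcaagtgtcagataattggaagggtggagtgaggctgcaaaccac
Col7a1: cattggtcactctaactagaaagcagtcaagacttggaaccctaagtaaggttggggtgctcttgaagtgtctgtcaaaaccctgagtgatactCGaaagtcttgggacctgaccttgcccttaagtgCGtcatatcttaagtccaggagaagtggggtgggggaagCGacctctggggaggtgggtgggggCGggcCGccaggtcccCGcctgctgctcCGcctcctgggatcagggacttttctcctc

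The sequences of Col1a2 (chr6:4505368-4505617, plus strand), Col3a1 (chr1:45311288-45311537, plus strand) and Col5a1 (chr2:27886175-27886380, plus strand) held 11, 0 and 25 CpG in 250, 250 and 206 bases. Those of Col18a1 (chr10:77113706-77113955, minus strand), Col17a1 (chr19:47692043-47692292, minus strand) and Col7a1 (chr9:108953336-108953585, plus strand) held 3, 2 and 7. The 300-base windows of all 36 collagen starts held 0 to 37 CpG with a median of 12, against a median of 14 over 20085 starts of all genes. A CG was found in 33 of 36 collagen windows and in 95.6% of all windows.

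Most collagen starts, like most starts of all genes, were free of peaks. No list had a peak over the 300-base window of any of the 36 starts, a count that was not made for other genes. Within 1 kb on either side 32 of 36 had none in any of the 6 lists. A peak in at least 1 list was found at 4 collagen starts (11.1%), against 13.5% of the starts of all genes. The inner start of Col18a1, which encodes the chain that carries endostatin, had a peak within 1 kb in 4 lists, namely transgenic replicates 1 and 3 and wild-type replicates 1 and 2. The merged region there covered 77112434 to 77112904 on chromosome 10, downstream of that start. Its outer start, with 16 CpG in 300 bases, had none. Col17a1, which encodes a hemidesmosomal transmembrane chain, had a peak in 2 lists (transgenic replicate 1 and wild-type replicate 2), 199 bp inside the gene from its start. Col7a1, the anchoring fibril gene, had 1 in transgenic replicate 3, and Col4a4, a basement membrane chain gene, had 1 in transgenic replicate 2. The starts of Col18a1 and Col17a1 thus had peaks in both groups, and those of Col7a1 and Col4a4 in 1 transgenic list each.

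Over all genes the share of starts with a peak varied with their number of CpG. A peak in any list lay within 1 kb of 28.2% of all starts with 6 to 10 CpG in 300 bases, of 10.7% with 0 to 2 and of 5.70% with 31 or more. The 4 collagen starts with 31 or more CpG, which are those of Col4a1, Col4a2, Col5a1 and Col8a2, had no peak in any list. The 5 with 0 to 2 CpG had none either, among them Col3a1 with 0. At the 4 starts with a peak the count was 5 to 14 CpG.

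**Figure D1:**
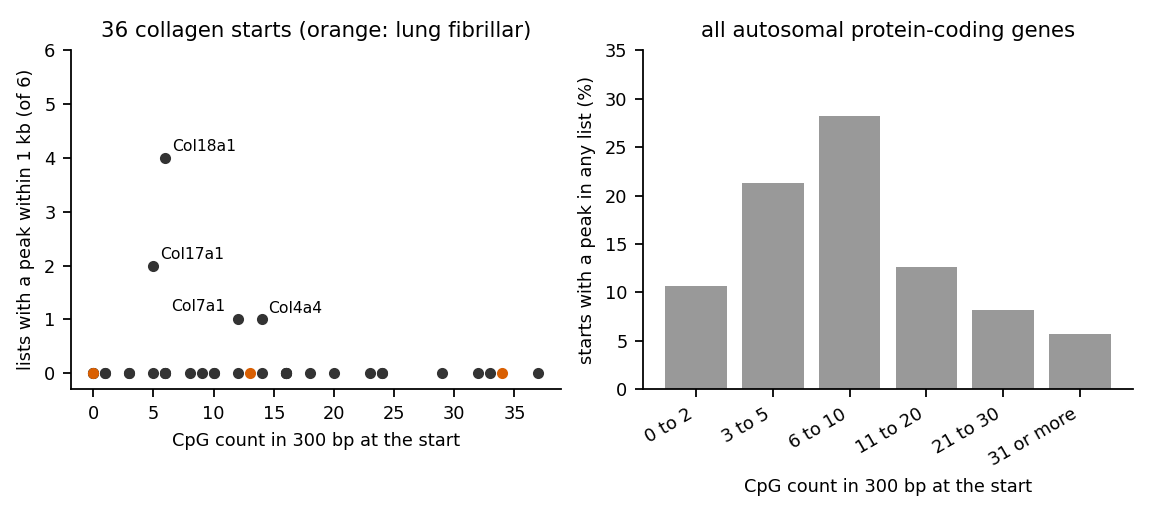
Left, each point is 1 of 36 collagen starts by its CpG count in 300 bp (x axis) and the number of the 6 lists with a peak within 1 kb (y axis); right, the share of starts of all autosomal protein-coding genes with a peak in any list (%), by CpG count. Of the collagen starts 32 lie at 0 lists, and Col18a1, with 6 CpG and 4 lists, lies highest.

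Lists differed greatly in length, from 30640 peaks in wild-type replicate 3 to 120349 in transgenic replicate 1, and no list can be scaled by its reads, since the read depth is unknown. An absent peak is therefore not an absence of methylation. Levels are given per list as peaks per kb of the gene span plus or minus 1 kb, each beside the same value for all genes in the same list.

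Pooled over their length, the collagens carried about as many peaks per kb as other genes, and by the median gene they carried more. All 42 genes together held 309, 271 and 189 peaks in transgenic replicates 1 to 3 and 138, 275 and 63 in wild-type replicates 1 to 3. Divided by their total length this was 0.0617, 0.0541 and 0.0378 peaks per kb in the transgenic lists and 0.0276, 0.0549 and 0.0126 in wild type. The same pooled value of all genes was 0.0614, 0.0582, 0.0380, 0.0280, 0.0552 and 0.0128 in that order, so the ratio of collagens to all genes stayed between 0.930 and 1.01 in every list (mean 0.983 ± 0.0268, SD, n = 6). By the median gene the collagens lay higher, with a mean ratio of 1.47 ± 0.481 (SD) over the 5 lists in which the median of all genes was above 0. Wild-type replicate 1 raised this mean and its spread. Without that list the mean ratio was 1.26, still above 1, and without each other list in turn it was 1.47 to 1.56. Collagen genes are long, with a median span of 110 kb against 17.5 kb for all genes, and 26 of 42 had a peak in all 6 lists against 29% of all genes. Across the 42 members, longer genes had fewer peaks per kb (Spearman's rho -0.41 between span and mean peaks per kb, n = 42 genes that share the same 6 lists), while across all 20665 genes rho was 0.09.

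Single members differed widely from each other, and the spread among other genes was not compared. The means over 6 lists ran from 0 peaks per kb in Col3a1 to 0.190 in Col6a1, and 41 of 42 members had a peak in at least 1 list, against 25.6% of all genes with none. The 5 highest were Col6a1 (0.190 ± 0.0782, SD, n = 6), Col7a1 (0.150 ± 0.0685), Col10a1 (0.146 ± 0.0897), Col6a3 (0.143 ± 0.0652) and Col6a2 (0.128 ± 0.0252). Neighbours in this order did not differ by more than their spread over lists. That spread includes the differing list lengths, which all genes share, and neighbours were not compared within lists. The 5 lowest were Col1a2 (0.0132 ± 0.0221), Col4a3 (0.0122 ± 0.0119), Col5a2 (0.00509 ± 0.00394), Col11a1 (0.000867 ± 0.00212) and Col3a1 (0). The order of genes was much the same in both groups, with a Spearman's rho of 0.94 between the transgenic and the wild-type means over the 42 genes, each with the same length and base composition in both groups, and 0.89 over all genes.

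**Figure D2:**
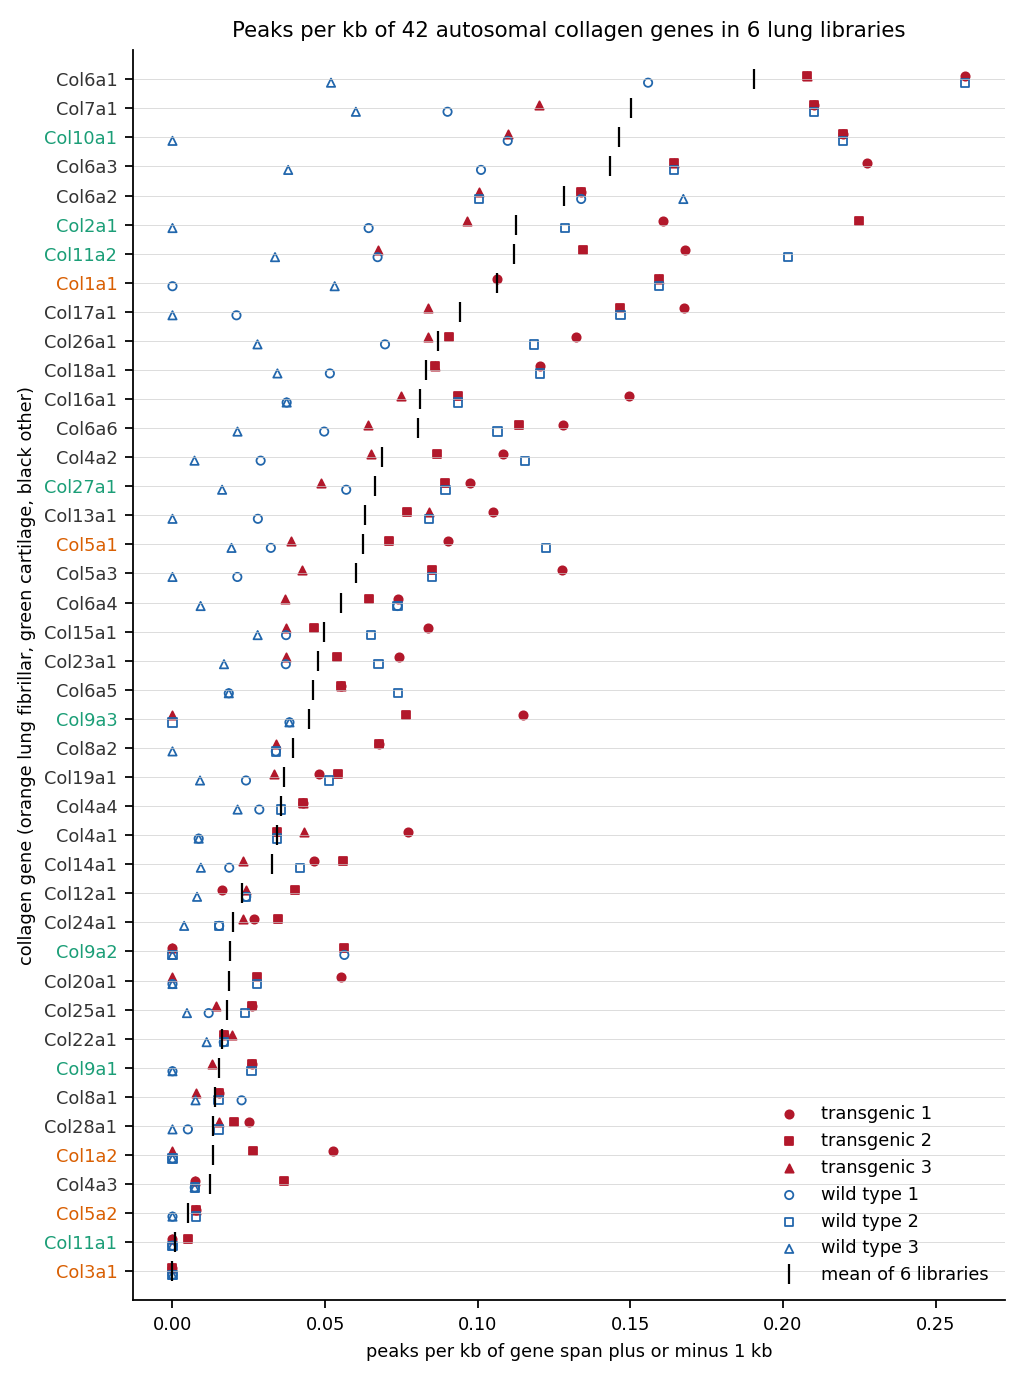
Peaks per kb (x axis) of each collagen gene (y axis, ordered by the mean of 6 libraries, shown as a bar) in 3 transgenic (filled) and 3 wild-type (open) libraries. Col6a1 lies highest with a mean of 0.190, Col3a1 lies at 0 in all 6 libraries, and wild-type replicate 3 is at 0 for 14 of the 42 genes.

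Of the 5 genes taken as fibrillar collagens of lung interstitium, 3 were almost bare and 2 were not. Col5a3, the third type V gene, was counted with the other collagens, and had 6, 4 and 2 peaks in transgenic mice and 1, 4 and 0 in wild type (mean of 6 lists 0.0602 ± 0.0473 peaks per kb, SD). Col3a1, which encodes the chain of type III collagen, had no peak in any list over its span (chromosome 1, 45311538 to 45349706). Its neighbour Col5a2, the second chain of type V collagen (chromosome 1, 45374331 to 45503282), had 1 peak in each transgenic list and 0, 1 and 0 in wild type, all at 45439216 to 45439624. Col1a2, the second chain of type I collagen (chromosome 6, 4505618 to 4541543), had 2, 1 and 0 peaks in the transgenic lists and none in any wild-type list. Its groups overlap at 0, and the exact permutation test gave p = 0.40, where 3 against 3 libraries cannot go below 0.10 (two-sided here and throughout).

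Col1a1, the partner of Col1a2 in type I collagen, was captured far more densely. Over its span on chromosome 11 (94936224 to 94953042) it had 2, 3 and 3 peaks in transgenic mice against 0, 3 and 1 in wild type. This was 0.106, 0.159 and 0.159 peaks per kb in transgenic mice and 0, 0.159 and 0.0531 in wild type (exact permutation p = 0.40). Wild-type replicate 2 was as high as transgenic replicates 2 and 3, so the groups overlap. Its widest region, 94950109 to 94951574, had a peak in 5 lists, with scores of 735, 255 and 174 in the transgenic lists and of 314 and 64.4 in wild-type replicates 2 and 3. Scores are the peak caller's own, start at 50 in every list and are not scaled between lists. Col5a1, which encodes the main chain of type V collagen (chromosome 2, 27886381 to 28039510), had 14, 11 and 6 peaks in transgenic mice and 5, 19 and 3 in wild type. Its highest value was thus in a wild-type list, and the group means of 0.0666 and 0.0580 peaks per kb differed by less than the spread within groups (SD 0.0261 and 0.0562, n = 3 each; exact permutation p = 0.80).

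Cartilage collagens, which lung fibroblasts make little of, were spread over the whole range as well. Col10a1, the hypertrophic cartilage collagen (chromosome 10, 34389981 to 34397085), had 2, 2 and 1 peaks in transgenic mice and 1, 2 and 0 in wild type over a span of only 7.11 kb, and both of its regions also lie in the span of Nt5dc1. Col2a1, the main fibrillar chain of cartilage (chromosome 15, 97975602 to 98004724), had 5, 7 and 3 peaks in transgenic mice and 2, 4 and 0 in wild type, which is 0.161, 0.225 and 0.0964 against 0.0643, 0.129 and 0 peaks per kb (exact permutation p = 0.20). Col11a2, a chain of cartilage type XI collagen on chromosome 17, had 5, 4 and 2 peaks in transgenic mice and 2, 6 and 1 in wild type. At the other end Col11a1, its partner chain, had 1 peak in transgenic replicate 2 and none in any other list over 190 kb of chromosome 3. The 3 genes of type IX collagen, which coats cartilage fibrils, held 0 to 3 peaks in any list: Col9a1 had 2, 2 and 1 in transgenic mice and 0, 2 and 0 in wild type, Col9a2 had 0, 1 and 0 and 1, 0 and 0, and Col9a3 had 3, 2 and 0 and 1, 0 and 1. Col27a1, a fibrillar collagen of the growth plate on chromosome 4, had 12, 11 and 6 peaks in transgenic mice and 7, 11 and 2 in wild type. In every one of these 8 genes the highest wild-type list reached or passed the lowest transgenic list.

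The median of the 5 lung fibrillar genes was below that of the 8 cartilage genes in 5 of 6 lists and equal at 0 in wild-type replicate 3. In transgenic replicates 1 to 3 it was 0.0527, 0.0264 and 0.00764 peaks per kb against 0.106, 0.0830 and 0.0309, and in wild-type replicates 1 to 3 it was 0, 0.00764 and 0 against 0.0566, 0.0577 and 0. The mean difference was -0.0400 ± 0.0233 peaks per kb (SD, n = 6 lists). Against the median of the other 29 collagens the lung fibrillar median was lower in all 6 lists, by a mean of -0.0305 ± 0.0169 (SD, n = 6). With all peaks of a class divided by all its kb the difference from cartilage genes was -0.00435 ± 0.0108, below 0 in 3 lists and above 0 in 3, and from the other collagens -0.00913 ± 0.00828, below 0 in 5 of 6 lists. Keeping only the peaks scoring no lower than the median over all lists, the difference of medians from cartilage genes was 0.000635. With Col5a3 counted as lung fibrillar, a choice made after seeing the data, the difference of medians was -0.0242 ± 0.0214 from cartilage genes and -0.0139 ± 0.00949 from the other collagens (SD, n = 6). The lung fibrillar median was then 0.0232 in transgenic replicate 3 and 0.0463 in wild-type replicate 2, and it stayed below that of the other collagens in all 6 lists. The order of the lung fibrillar and cartilage classes thus changed with how genes were weighted. Classes were set from textbook expression, since the files hold no RNA.

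**Figure D3:**
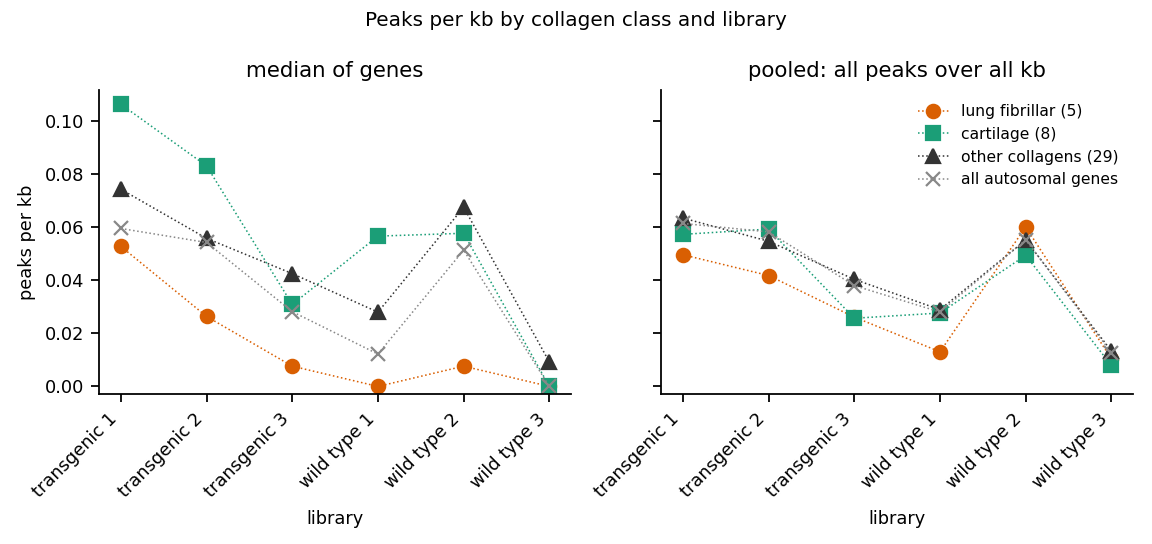
Peaks per kb (y axis) in each of the 6 libraries (x axis) for lung fibrillar, cartilage and other collagens and for all autosomal protein-coding genes, as the median gene (left) and as all peaks over all kb (right); dotted lines join the values of a class and have no order in time. Lung fibrillar collagens lie lowest by the median in 5 libraries and level with cartilage collagens and all genes at 0 in wild-type replicate 3, while by the pooled values they lie above cartilage collagens in 3 libraries and below them in 3.

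Among the remaining collagens, those of type VI stood highest. The median of the 6 beaded-filament genes was 0.131, 0.124 and 0.0822 peaks per kb in transgenic mice and 0.0874, 0.103 and 0.0296 in wild type. Col6a2 had peaks in every list, with 4, 4 and 3 in transgenic mice and 4, 3 and 5 in wild type. The mean difference, transgenic minus wild type, was -0.0112 peaks per kb (exact permutation p = 1). With Col8a1 it was 1 of 2 members with a higher wild-type mean of peaks per kb. This did not hold by coverage of the Col6a2 window, which was 10.1%, 9.17% and 7.29% in transgenic mice and 7.14%, 7.64% and 4.16% in wild type. At Col8a1 coverage was 0.897%, 0.913% and 0.516% against 1.08%, 0.862% and 0.339%. The median peak was 197 bp wide in wild-type replicate 3 and 460 bp in transgenic replicate 1. Col6a1, which lies on the same chromosome as Col6a2, had 5, 4 and 4 peaks in transgenic mice against 3, 5 and 1 in wild type. Col6a3, the long chain that completes the type VI trimer, had 18, 13 and 13 against 8, 13 and 3. The other classes had lower medians: 4 transmembrane genes averaged 0.0530 ± 0.0330, 9 basement membrane and network genes 0.0399 ± 0.0227, and 6 fibril-associated genes 0.0306 ± 0.0153 peaks per kb (mean and SD of 6 list medians).

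Partner chains of the same protein differed in capture. Col4a1 and Col4a2, the major basement membrane chains, share a start region on chromosome 8 and run apart from it. Col4a1 had 9, 4 and 5 peaks in transgenic mice and 1, 4 and 1 in wild type, and Col4a2 had 15, 12 and 9 against 4, 16 and 1. Col4a3 and Col4a4, the chains of the alveolar and glomerular basement membrane, share a start on chromosome 1 in the same way. Col4a3 had 1, 5 and 1 peaks in transgenic mice and 1 in each wild-type list, while Col4a4 had 6, 6 and 6 against 4, 5 and 3. In transgenic replicate 2 the peak at 82585777 to 82586024 (score 64.3) lay in both windows and was counted for both genes. The shared starts had no peak within 1 kb in any list for the first pair and in 1 list for the second.

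On average over genes, peaks covered more of the far end of collagen genes than of their start, and a few genes carried much of this. Over the 33 genes whose strand RefSeq gives, with the span cut into 10 equal bins, peaks covered 1.66 ± 1.04% of the first bin, 2.66 ± 1.59% of the 8 middle bins and 6.11 ± 3.27% of the last bin (mean and SD of 6 lists). The last bin was above the first in every list, from 0.906% against 0.308% in wild-type replicate 3 to 10.2% against 3.41% in transgenic replicate 1. Over all 16457 genes with a known strand coverage also rose along the gene, from 1.89% in the first bin to 4.50% in the ninth, and was 4.04% in the last. Gene by gene, the mean over lists was higher in the last bin than in the first in 21 of the 33 genes, lower in 6 and equal in 6. Within single lists the last bin was above the first in 20, 22 and 16 genes in transgenic mice and in 12, 21 and 9 in wild type. It held no peak in 16 genes in transgenic replicate 3 and in 19 and 24 genes in wild-type replicates 1 and 3, where the median gene was thus at 0 in both wild-type lists. Col6a1 and Col6a2 had 41.5% and 28.4% of their last bin covered on average, followed by Col11a2 with 16.9% and the corneal and vascular network collagen Col8a2 with 14.6%. The other 4 type VI genes did not share this level: Col6a4 had 5.78% of its last bin covered, Col6a3 3.54% against 7.86% of its middle, Col6a6 1.36% against 3.84% of its first bin, and Col6a5 had 0. Without the 6 type VI genes the last bin was covered to 4.48 ± 2.91% and the first to 1.80 ± 1.09% (27 genes). The 6 genes with more of their first bin covered were Col7a1 (26.5% against 11.7% of the last), Col27a1 (5.48% against 3.16%), Col5a1 (4.18% against 3.15%), Col6a6, Col4a4 (1.03% against 0.766%) and Col24a1 (0.673% against 0). Members named only for these bins, such as Col8a2 and Col6a4, were chosen after their values were seen.

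**Figure D4:**
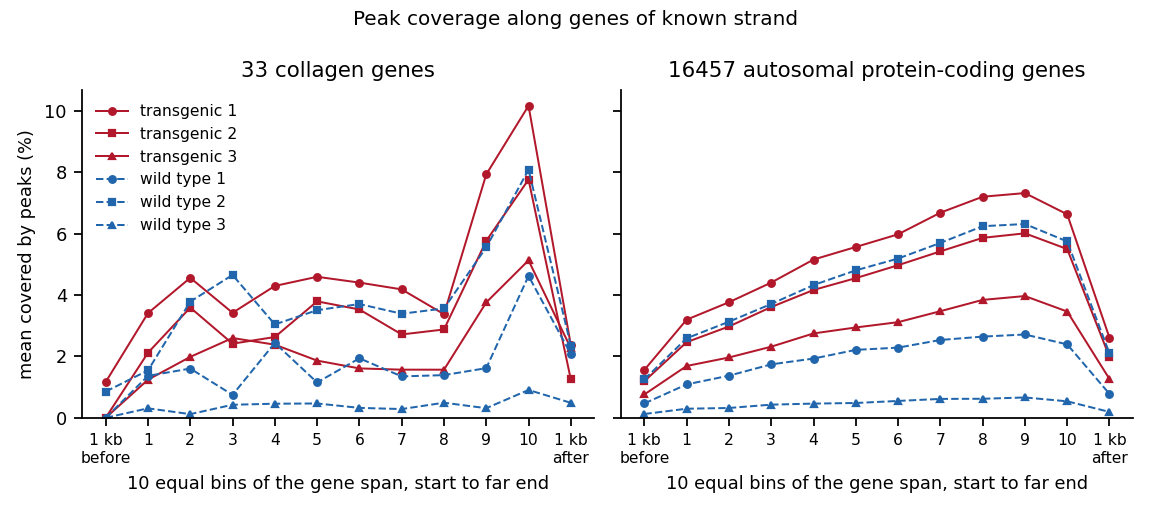
Mean percent of sequence covered by peaks (y axis) in the 1 kb before the start, in each of 10 bins of the gene span and in the 1 kb after the far end (x axis), 1 line per library, for 33 collagen genes (left) and 16457 autosomal protein-coding genes (right). In collagens the last bin lies above the first in every library, at 0.906% to 10.2%; over all genes the rise along the gene is more even.

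The share of collagen genes with a peak at an end was above that of all genes in every list but wild-type replicate 2. By the percent of the end windows covered, collagens had 2.04 ± 0.975% and all genes 2.19 ± 1.27% (mean and SD of 6 lists). A peak within 1 kb of either end was found at 14, 12 and 9 of the 42 genes in transgenic mice against 9, 10 and 4 in wild type, that is 11.7 ± 2.52 and 7.67 ± 3.21 genes (SD, n = 3 each), and the groups overlap. The share of collagens was 33.3%, 28.6% and 21.4% and then 21.4%, 23.8% and 9.52%, against 28.2%, 25.9% and 18.2% and then 12.7%, 25.2% and 5.37% of all genes. No list had a peak at an end of 25 of the 42 collagens, against 64.4% of all genes, and these 25 included all 5 lung fibrillar genes. Without wild-type replicate 3 the difference of 4 genes was 2.17, and with windows of 500 bp and 2 kb in place of 1 kb it was 0.667 and 6.67. Of the 33 genes with a known strand, 9 had a peak at the far end in some list and 3 at the outer start. This was not particular to collagens, since over all 16457 genes with a known strand far ends outnumbered starts in every list. The longest list, transgenic replicate 1, had far-end peaks at 21.6% of them and start peaks at 10.2%. The shortest, wild-type replicate 3, had 3.88% and 1.93%. For the 33 collagens the same shares were 24.2% and 6.06%, then 9.09% and 0%. The far ends of Col15a1 and Col6a2 had a peak in all 6 lists, against 3.43% of all genes with a peak at an end in all 6. At Col15a1, a perivascular basement membrane collagen, the region lay at 47313176 to 47313958 on chromosome 4, 9 bp beyond the annotated end, with scores of 407, 193 and 114 in transgenic mice and 113, 341 and 68.2 in wild type. At Col6a2 it lay at 76596049 to 76597004 on chromosome 10, 293 bp inside the end, with scores of 1247, 675 and 375 and of 109, 741 and 65.2. Both groups had these peaks. Scores are not scaled between lists, and at both regions they were highest in transgenic replicate 1 and lowest in wild-type replicate 3.

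Merging the 6 lists gave 437 regions in the windows of collagen genes. A peak in all 6 lists was found at 34 of them (7.78%), against 10.6% of all 158077 autosomal regions, and these 34 lay in 20 genes. Those with the highest lowest score, named after their values were seen, lay inside Col26a1 (136751878 to 136752696 on chromosome 5, lowest score 182) and inside Col22a1, which encodes a collagen of tissue junctions (72093979 to 72095482 on chromosome 15, lowest score 168). At the first the scores were 1214, 594 and 246 in transgenic mice and 194, 325 and 182 in wild type. At the second they were 1042, 786 and 536 against 186, 702 and 168.

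The transgenic lists, which were longer on average, held more peaks in most members, as they did in most genes. With 3 libraries against 3 and 20665 genes no adjusted p could pass a threshold, so genes are described by whether the groups overlap. The median collagen had 0.0758, 0.0604 and 0.0379 peaks per kb in transgenic mice and 0.0282, 0.0663 and 0.00881 in wild type. The group means differed by 0.0236 (0.0580 ± 0.0190 and 0.0344 ± 0.0293, SD, n = 3 each), wild-type replicate 2 lay above transgenic replicates 2 and 3, and the median of all genes differed by 0.0261. Without wild-type replicates 2 and 3 and transgenic replicate 1 in turn, the difference of collagen medians was 0.0395, 0.0108 and 0.0147, and that of all genes 0.0412, 0.0155 and 0.0200. With each list shortened to its 30640 best peaks the difference of the collagen medians was -2.26e-05. The transgenic mean of peaks per kb was higher in 38 of the 41 members with a peak. Over all genes it was higher in 82.6% of those with a peak in any list (61.5% of all 20665 genes). It was lower in 2 members, against 4.9% of all genes.

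All 3 transgenic lists lay above all 3 wild-type lists at 2 of 42 members, Col24a1 and Col4a4, against 2.55% of all genes. No member had all wild-type lists above all transgenic lists, against 0.00968% of all genes. Col24a1, a minor fibrillar collagen of chromosome 3 (145292472 to 145552013), had 7, 9 and 6 peaks in transgenic mice and 4, 4 and 1 in wild type, or 0.0268, 0.0344 and 0.0229 against 0.0153, 0.0153 and 0.00382 peaks per kb. Col4a4 (chromosome 1, 82448419 to 82587034) had 0.0427 in each transgenic and 0.0284, 0.0356 and 0.0213 in wild type, so that its groups were 1 peak apart. In transgenic replicate 2 its peaks include the one also counted for Col4a3, and without that peak the groups would meet. Col24a1 and Col4a4 reached the smallest p that the exact permutation test allows, 0.10 (adjusted p = 1, as for every gene). By the percent of the window covered 2 members were again called, against 5.23% of all genes, and these were Col24a1 and Col4a3. The count of 2 was 1 with equal list lengths, 10 without transgenic replicate 3 and 24 without wild-type replicate 2, when 0.75%, 14.3% and 27.8% of all genes met the same condition.

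At the level of regions, 7 of the 437 were found in every transgenic list but not in any of wild type, which is 1.60% against 1.84% of all autosomal regions. None had the opposite pattern, against 0.0152% of all regions. The 7 lay inside Col13a1, a transmembrane collagen of neuromuscular junctions, with 2 regions (61853329 to 61853907 and 61873723 to 61874176 on chromosome 10), and inside Col6a3, Col24a1, Col26a1, Col28a1 and Col4a1 with 1 each. Transgenic scores at the second Col13a1 region were 158, 123 and 60.5, and those at the region of Col24a1 (145438920 to 145439270) were 66.5, 83.3 and 65.6, near the lowest score of 50. The region of Col4a1 (11202742 to 11203137 on chromosome 8) scored 85.7, 89.8 and 65.4. With equal list lengths there was 1 such region, when 1.16% of all regions had that pattern. Without transgenic replicates 2 and 3 and wild-type replicate 2 there were 11, 26 and 56, with fewer lists to satisfy, and the share of all regions was then 3.22%, 6.50% and 13.4%.

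No collagen gene was overlapped by a region of the authors' deposited table of differential regions, against 0.76% of all genes. The nearest region of the authors' deposited table lay 25143 bp from Col19a1, at 24613064 to 24615583 on chromosome 1, and was lower in the transgenic mice (log2 fold -2.35, FDR 0.0747). The next lay 57723 bp from Col13a1 (61780082 to 61780511 on chromosome 10); the authors' deposited table gives it an FDR of 0.0850 and, for transgenic against wild type, -1.70 on the log2 scale.

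The genes that make, cross-link, degrade and sense collagen were read in the same way. All 49 genes of that list were found, and 4 of them had all transgenic lists above all wild-type lists, against the same 2.55% of all genes, while none had the opposite order and none carried a region of the authors' deposited table. All 4 were among the 26 genes of collagen processing. P4ha1, a subunit of the prolyl hydroxylase that stabilises the helix, had 3, 3 and 3 peaks in transgenic mice and 0, 2 and 1 in wild type. Colgalt2, a collagen galactosyltransferase, had 7, 7 and 7 against 3, 6 and 1. Adamts3, which removes the amino-terminal propeptide, had 7, 7 and 6 against 2, 5 and 2, and Pcolce2, an enhancer of carboxy-terminal cleavage, had 7, 6 and 6 against 2, 4 and 3. At Colgalt2, P4ha1 and Adamts3 the groups were 1 peak apart, at Pcolce2 they were 2 apart, and each reached the smallest exact permutation p of 0.10 with an adjusted p of 1. The 5 cross-linking, 8 degradation and 10 receptor genes had no such gene. The transgenic mean was higher in 43 of the 49 genes, against 61.5% of all genes and 82.6% of those with a peak in any list. The 49 include genes without a peak in any list, such as Mmp13, Mmp8 and Itgb1. The wild-type mean was higher in none, against 4.9% of all genes.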

How the data were processed

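MBD-seq peak lists of 6 lungs were used, 3 transgenic and 3 wild type, grouped and numbered by the sample titles, and the labels give them as biological replicates. The submitters' processing notes name Bowtie, DiffBind, edgeR and the build mm10, without versions. Each library has its own peak list, with peak names of the kind MACS writes. The deposited score of a peak comes from the authors' caller and starts at 50 in every list. In the authors' deposited table, 407 differential regions carry a fold on a log2 scale, a p-value and an FDR. How these were normalized is not stated in the sources used here. The authors' annotation tables were not used here.

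Gene spans and starts came from RefSeq tables (GRCm38.p6, the assembly of mm10). Peaks sharing 1 bp or more with a span plus or minus 1 kb were counted and divided by the window's kb, with Python 3.11.15, pandas 2.3.3 and scipy 1.17.1. Strand was known for 33 members. Starts from the peak lists are printed 1-based, those of the authors' table as deposited. Genes were compared by exact permutation tests with Benjamini-Hochberg adjustment over all autosomal protein-coding genes, and a gene was called when the groups did not overlap. Counting was checked by a direct recount of a sample of genes in the real lists. Calling was tested on simulated counts with planted differences. There all 6 libraries had equal depth, so that test does not cover the unequal lengths of the real lists. Named genes were the lung fibrillar and cartilage members, the 5 highest and 5 lowest, those with end peaks in all 6 lists, those called or holding a region of 1 group alone, called pathway genes, and starts with peaks. Members and lists were chosen with earlier results of these data known. Alternatives were equal list lengths, a score threshold, other windows, peak centres, coverage, pooled density, pairing by replicate number, leaving out each library and, added after the data were seen, another class for Col5a3.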

Additional observations from a re-analysis of the deposited data

How the results depend on the processing

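Of 117 values recomputed under the alternatives, 96 kept their direction and moved by less than 1 SD between libraries or, for counts, by at most 1.5 times, 19 moved further and 2 changed sign. Of the 96, 27 were counts that stayed at 0, and coverage was compared in units of its own SD. The margin of 1 SD was wide for some results. It was 0.0247 for the difference of collagen medians of 0.0236, and 0.481 for the ratio of collagens to all genes of 1.47. For such results the tally of 96 says little on how stable the value was. With each list shortened to its 30640 best peaks, the count of members with higher transgenic lists was 1, the difference of collagen medians between groups was -2.26e-05 peaks per kb, that of genes with an end peak was 0, the lung fibrillar median differed by -0.00268 from cartilage and by -0.0105 from other collagens, and the regions of 3 transgenic lists alone numbered 1. The ratio of collagens to all genes could not be had there, because the median of all genes was 0 in every list. With only the peaks scoring no lower than the median over all lists these were 1 member, 3 regions, and class differences of 0.000635 and -0.00926. With windows of 500 bp the difference in genes with an end peak was 0.667. With pooled density the ratio of collagens to all genes was 0.983 in place of 1.47, and the class differences were -0.00435 and -0.00913. The cause of these moves was not tested.

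Without each library in turn, the count of members with higher transgenic lists was 2 to 24 (2.64% to 27.8% of all genes), that of regions of 3 transgenic lists alone 7 to 56 (2.01% to 13.4% of all regions), and that of regions of 3 wild-type lists alone 0 to 2, with 2 when wild-type replicate 3 was left out (0.530% of all regions). The difference of collagen medians was 0.0108 to 0.0395 and that of genes with an end peak 2.17, without wild-type replicate 3, to 5.33. The ratio of collagens to all genes by the median gene was 1.26, without wild-type replicate 1, to 1.56. Pairing the libraries by replicate number, as a block, gave 9 members higher in all 3 pairs (15.4% of all genes) and 0 lower. Whether the numbers pair the samples cannot be told from these lists. Over all genes the deviations of same-numbered libraries correlated at -0.07, 0.21 and 0.41, and those of differently numbered libraries at -0.46 to 0.36. Over the collagens these values were -0.16, -0.36 and 0.16, and -0.33 to 0.39.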
